A study of Mus musculus with 6 samples.

Results

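The SMADs and BMP receptors described here are 10 of the 54551 genes in the deposited tables, chosen by gene name. They are the receptor-regulated SMADs Smad1, Smad5, Smad2 and Smad3, the common SMAD Smad4, and the inhibitory SMADs Smad6 and Smad7. The type 1 BMP receptors Bmpr1a and Bmpr1b and the type 2 receptor Bmpr2 complete the set. All 10 were found in all 6 libraries, and all 10 passed the filter of more than 1 FPKM in at least 3 libraries. FPKM, the fragments of a gene scaled to its length and to a size set for the library, is a level per length. That size was not the plain read total, as given below. Levels of different genes are compared on FPKM here within limits. The relation of level to gene length differed between libraries. The deposited exon length of Smad2, 3549 nt, was also shorter than the 8781 nt of GENCODE M21, so its place among the members rests on the deposited length.

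RNA of granulosa cells was sequenced in 3 libraries labelled Gm12840-/- and 3 libraries labelled WT (wild type). Gm12840 is a long intergenic noncoding RNA gene. Mice of both labels were C57BL/6 at postnatal day 21. Follicle growth was induced with 5 IU of PMSG. After 48 h an ovulatory stimulus, 5 IU of hCG, was given, and cells were taken 6 h later. The labels do not give the deleted part of Gm12840, the promoter or cell type of any transgene, whether animals were pooled, or whether libraries came from separate animals. The p-values therefore measure only the spread between these samples.

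Ligands of the TGF-beta superfamily bind pairs of type 1 and type 2 receptor kinases at the cell surface. BMP receptors then phosphorylate Smad1 and Smad5, while activin and TGF-beta receptors phosphorylate Smad2 and Smad3. The phosphorylated SMADs join Smad4 and enter the nucleus, and Smad6 and Smad7 block this relay. In the follicle the oocyte sends GDF9 and BMP15 to the granulosa cells, and granulosa cells themselves make inhibin, activin and anti-Müllerian hormone, all ligands or antagonists of this family.

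Promoter sequences are shown for 3 members. Smad6 is shown because its window holds a SMAD-binding sequence, and Bmpr1a and Smad3 because their levels differed most between libraries. Each window holds 250 bases before and 50 bases after the start given by RefSeq for the GRCm38.p6 build, written 5′ to 3′ on the gene's own strand. The Bmpr1a window lies inside the gene as counted here, whose 5′ end is at 34503341, so its start is an internal one. RefSeq windows were matched for 7 of 10 members. Smad2, Smad4 and Smad7 had no matched window, so their promoters were not searched for any of these sequences. Capitals mark GTCTAGAC, a palindrome that Smad3 and Smad4 bind, GGCGCC, a GC-rich sequence of BMP-responsive enhancers, and GGGCGG or its reverse complement CCGCCC, the GC box that Sp1 binds. Both strands were searched.
Smad6, chr9:64022010-64022309, minus strand: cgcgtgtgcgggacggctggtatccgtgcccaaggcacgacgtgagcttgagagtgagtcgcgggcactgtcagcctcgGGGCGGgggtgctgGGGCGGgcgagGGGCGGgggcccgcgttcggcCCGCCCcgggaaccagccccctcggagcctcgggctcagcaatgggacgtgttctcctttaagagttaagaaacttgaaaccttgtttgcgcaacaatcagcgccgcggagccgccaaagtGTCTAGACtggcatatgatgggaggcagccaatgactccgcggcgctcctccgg
Bmpr1a, chr14:34502497-34502796, minus strand: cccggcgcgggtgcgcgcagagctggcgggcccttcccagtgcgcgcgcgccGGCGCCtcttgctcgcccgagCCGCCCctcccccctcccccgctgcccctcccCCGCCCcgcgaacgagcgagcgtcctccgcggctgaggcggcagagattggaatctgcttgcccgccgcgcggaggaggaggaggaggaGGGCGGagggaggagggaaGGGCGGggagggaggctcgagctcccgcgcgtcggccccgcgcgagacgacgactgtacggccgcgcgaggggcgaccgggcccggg
Smad3, chr9:63757945-63758244, minus strand: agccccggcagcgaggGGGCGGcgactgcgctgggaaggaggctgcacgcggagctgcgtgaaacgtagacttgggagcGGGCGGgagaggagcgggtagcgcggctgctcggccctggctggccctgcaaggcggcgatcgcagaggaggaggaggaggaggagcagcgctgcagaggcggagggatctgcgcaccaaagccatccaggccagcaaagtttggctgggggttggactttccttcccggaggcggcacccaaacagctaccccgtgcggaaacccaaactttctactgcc

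The Smad6 window holds 1 GTCTAGAC, beginning 4 bases before the start, and it is the only 1 of the 7 matched members with this palindrome. Of all 32851 promoter windows, 0.213% hold it. GGCGCC occurs in windows of 3 matched members, Bmpr1a, Bmpr2 and Smad5, and in 11.9% of all windows. A GC box occurs in windows of 6 matched members and in 35.7% of all windows. The 7 matched members have 11 windows, and a member counts where any of its windows holds the sequence. The shares of all windows are per window, so they are not the same measure as the counts of members. The Bmpr1b windows hold none of these sequences. A match is a description of the letters in these windows and was not tied to binding.

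The members lie on 6 chromosomes besides a group of 3 on chromosome 18, in mm10 coordinates of the deposited tables. Smad3 (ENSMUSG00000032402) runs from 63646767 to 63757994 and Smad6 (ENSMUSG00000036867) from 63953076 to 64022059, both on the minus strand of chromosome 9. A gap of 195081 bp with 0 protein-coding genes in GENCODE M21 separates them. On chromosome 18, Smad4 (ENSMUSG00000024515) runs from 73639009 to 73703780, Smad7 (ENSMUSG00000025880) from 75367529 to 75395935, and Smad2 (ENSMUSG00000024563) from 76241580 to 76305731. Smad1 (ENSMUSG00000031681) lies on chromosome 8, Smad5 (ENSMUSG00000021540) on 13, Bmpr1a (ENSMUSG00000021796) on 14, Bmpr1b (ENSMUSG00000052430) on 3 and Bmpr2 (ENSMUSG00000067336) on 1. The members' exon lengths ran from 3205 nt for Smad6 to 17983 nt for Bmpr2, with a median of 5752 nt against 3639 nt over the 12495 genes tested.

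The labels name the TruSeq RNA kit and do not say that strand was kept or used in counting, which was not measured here. Reads of overlapping genes on opposite strands therefore cannot be told apart. The antisense gene Gm17110 overlaps exons of Bmpr1a over 290 nt. It held 5 to 30 reads per library, against 886 to 4342 for Bmpr1a. Gm27301 overlaps exons of Smad5 over 100 nt and was listed at 0 in every library.

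The libraries did not divide by label. Recovered depths ran from 16392098 to 19465847 reads. The library size behind the deposited FPKM was 1.12, 1.12 and 0.904 times these reads in Gm12840-/- 1 to 3. In WT 1 to 3 it was 0.894, 0.939 and 1.12 times these reads. The mitochondrial genome's own genes had a read share of 1.52%, 4.19% and 0.146% in Gm12840-/- 1 to 3, against 0.227%, 0.311% and 2.08% in WT 1 to 3. That share is often read as a sign of cell or RNA quality. The same 3 libraries that lay above 1%, Gm12840-/- 1, Gm12840-/- 2 and WT 3, lay on one side of the first principal component, which held 83.3% of the variance between libraries. The slope of log2 level on log2 gene length was highest in these 3 as well, at -0.0898, 0.0658 and -0.0230, against -0.251 in Gm12840-/- 3 and -0.260 and -0.213 in WT 1 and 2. Gm12840 itself stood at 0.426, 0.611 and 1.45 FPKM in libraries labelled Gm12840-/- 1 to 3, against 1.83, 0.566 and 0.365 FPKM in those labelled WT 1 to 3 (5, 7 and 14 reads, against 17, 6 and 5). A two-sided exact permutation test gave p = 1, and with 3 libraries a label it cannot go below 0.1. The targeted gene thus showed no detectable difference between the labels, with 26 reads in all in the libraries labelled Gm12840-/- and 28 in those labelled WT. So few reads cannot settle whether it was lower, and every direction below rests on the labels.

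Granulosa cell markers were present in all libraries. The 12 markers, all tested, summed to 6996, 5195 and 9882 FPKM in libraries labelled Gm12840-/- 1 to 3, against 13144, 12295 and 7196 FPKM in those labelled WT 1 to 3. limma called 0 of the 12, 10 of which had negative log2 fold changes. In 7 of the 12 the libraries above 1% mitochondrial reads were all lower than the other 3, which held for 34.9% of all genes. Foxl2, a granulosa transcription factor, stood at 26.2, 29.0 and 48.5 FPKM in libraries labelled Gm12840-/- 1 to 3, and 43.0, 45.5 and 40.0 FPKM in those labelled WT 1 to 3. Markers of other ovarian cells were also detected. The summed levels of a list in each library were 89.8 to 114 FPKM in libraries labelled Gm12840-/- and 62.5 to 120 FPKM in those labelled WT for 12 stroma, pericyte and smooth muscle genes. For 8 endothelial genes they were 21.3 to 25.8 FPKM and 12.04 to 22.0 FPKM in the same order of labels, and for 9 oocyte genes 222 to 387 FPKM and 242 to 439 FPKM. Of 5 erythroid genes, 5 were lower in every library above 1% mitochondrial reads, against 34.9% of all genes. Their summed levels were 473 to 3512 FPKM in libraries labelled Gm12840-/- and 613 to 4455 FPKM in those labelled WT. For 6 theca genes they were 61.5 to 65.7 FPKM and 41.0 to 84.6 FPKM in the same order of labels, and for 8 leukocyte genes 34.2 to 54.1 FPKM and 34.4 to 58.2 FPKM. Cd3e, a T cell marker, was listed at 0 in 5 libraries. Log2 fold changes were positive in 9 of 9 stroma, pericyte and smooth muscle genes tested, 5 of 5 theca genes and 6 of 7 endothelial genes. They were positive in 2 of 4 leukocyte, 1 of 8 oocyte and 0 of 5 erythroid genes, against 45% of all genes. limma called 0 genes of these lists. The defining markers Pdgfra and Pecam1 stood at 0.940 to 2.66 FPKM and 1.05 to 1.63 FPKM in libraries labelled Gm12840-/-, against 0.702 to 1.30 FPKM and 1.01 to 1.41 FPKM in those labelled WT. The part of granulosa and other cells in the levels below was not tested. In bulk samples, fewer cells of a type and less RNA per cell cannot be told apart.

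Smad4, the partner shared by both branches, was the most abundant member by median level, at 20.05 FPKM over the 6 libraries. It led in 5 libraries, and Bmpr1a led in Gm12840-/- 2. Bmpr1a followed with a median of 15.8 FPKM, then Smad2 with 11.97, Bmpr1b with 11.6, Smad5 with 10.6, Smad7 with 10.3 and Bmpr2 with 9.96. Smad3 had a median of 7.87 FPKM, Smad6 of 6.62 and Smad1 of 4.77. Smad1 was the lowest in 5 libraries, and Smad6 in WT 1.

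Several neighbours in this order did not differ beyond their spread. Bmpr1a lay above Smad2 in 6 of 6 libraries, Smad4 above Bmpr1a in 5, Bmpr2 above Smad3 in 5 and Smad6 above Smad1 in 5. Smad2 lay above Bmpr1b in 4 libraries, Bmpr1b above Smad5 in 4 and Smad3 above Smad6 in 4. Smad5 above Smad7 and Smad7 above Bmpr2 held in 3 libraries each, so the middle of the order, from Smad2 to Bmpr2, was not settled by these data.

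**Figure D1:**
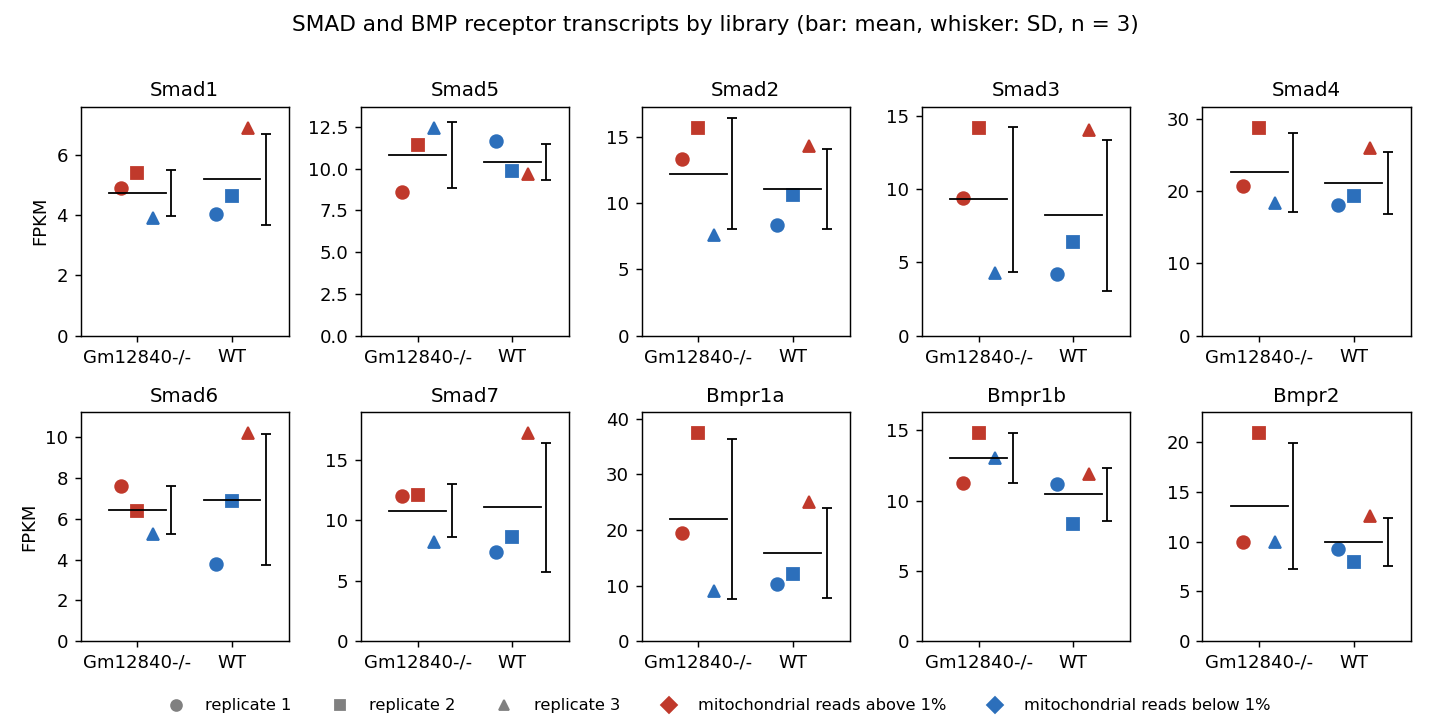
Level of each member in FPKM (y axis, linear, from 0) in the libraries labelled Gm12840-/- (left in each panel) and WT (right), with a bar at the mean, a whisker of 1 SD beside it (n = 3) and colours for libraries above or below 1% mitochondrial reads. The groups overlap in all 10 panels, and Bmpr1a in Gm12840-/- 2, at 37.4 FPKM, is the highest point.

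No SMAD or BMP receptor was called between the libraries labelled Gm12840-/- and those labelled WT, 0 of 10 members. limma on log2(FPKM + 1) called 0% of 12495 genes at an adjusted p under 0.05. At an unadjusted p under 0.05 it gave 0 members, where 0.728% of all genes tested reached that level. limma-voom, run on recovered reads, called 0 genes as well, and 74 genes reached an unadjusted p under 0.05. The groups overlapped in all 10 members, where 3.53% of all genes had groups that did not overlap. The members' log2 fold changes were positive in 8 of 10, against 45% of all genes, with a median of 0.10, against -0.04 over all genes. This tally had no stable direction. With library totals as the scaling 9 of 10 were positive, against 55.6% of all genes in that fit. It was 3 of 10 with the length slope as a covariate (median -0.09), 3 of 10 with the mitochondrial division as a term (median -0.11), 4 of 10 without WT 1 (median -0.04) and 3 of 10 without Gm12840-/- 2 (median -0.07). In those fits 43.9% to 49.0% of all genes were positive.

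Among receptor-regulated SMADs of the BMP branch, Smad1 stood at 4.90, 5.40 and 3.91 FPKM in libraries labelled Gm12840-/- 1 to 3, against 4.04, 4.63 and 6.91 FPKM in those labelled WT 1 to 3. The highest value was that of WT 3 and the lowest that of Gm12840-/- 3. The log2 fold change was -0.09 with an SE of 0.24 and a 95% interval of -0.67 to 0.49 (n = 3 each, adjusted p = 0.993 by limma). Smad5, its close paralogue, stood at 8.61, 11.4 and 12.4 FPKM, against 11.7, 9.85 and 9.69 FPKM, in the same order of libraries. It varied least of all members, with a highest level 1.45 times its lowest, and 15.1% of the genes tested varied less. Its log2 fold change was 0.04, with an interval of -0.48 to 0.56. Smad9, the third SMAD of this branch and not a member, stayed at 0.339 to 1.23 FPKM over the 6 libraries.

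Among the SMADs of the activin and TGF-beta branch, Smad2 stood at 13.4, 15.7 and 7.58 FPKM in libraries labelled Gm12840-/- 1 to 3, against 8.33, 10.6 and 14.3 FPKM in those labelled WT 1 to 3. Gm12840-/- 1, Gm12840-/- 2 and WT 3 were the 3 highest, so each label held high and low libraries. Smad3 stood at 9.40, 14.2 and 4.27 FPKM, against 4.23, 6.35 and 14.03 FPKM, and the same 3 libraries were the highest. The log2 fold change was 0.10 for Smad2, with an interval of -0.68 to 0.89, and 0.17 for Smad3, with an interval of -1.06 to 1.41. Smad3 had the wider interval, and its highest level was 3.35 times its lowest.

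Smad4, which both branches need, stood at 20.7, 28.8 and 18.4 FPKM in libraries labelled Gm12840-/- 1 to 3, against 18.1, 19.4 and 26.0 FPKM in those labelled WT 1 to 3. Its log2 fold change was 0.09, with an interval of -0.55 to 0.72. Gm12840-/- 2 and WT 3 stood above the other 4 libraries, which lay between 18.1 and 20.7 FPKM.

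The inhibitory SMADs gave the smallest log2 fold changes of the set. Smad6, which preferentially blocks BMP receptors, stood at 7.62, 6.38 and 5.27 FPKM in libraries labelled Gm12840-/- 1 to 3, against 3.76, 6.85 and 10.2 FPKM in those labelled WT 1 to 3. All 3 values of the libraries labelled Gm12840-/- lay inside the range of those labelled WT. The log2 fold change was -0.02, with an interval of -0.84 to 0.79. Smad6 in WT 1 had the fewest reads of any member and library, 179, for which the exact Poisson 95% interval of the level was 3.23 to 4.36 FPKM, counting error only. Smad7, which blocks both branches, stood at 12.004, 12.1 and 8.25 FPKM, against 7.39, 8.62 and 17.2 FPKM. It gave a log2 fold change of 0.03, with an interval of -0.79 to 0.86.

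Among receptors, Bmpr1a, a type 1 kinase, stood at 19.5, 37.4 and 9.06 FPKM in libraries labelled Gm12840-/- 1 to 3, against 10.3, 12.1 and 25.1 FPKM in those labelled WT 1 to 3. It varied most of all members. The highest and the lowest library, 4.13-fold apart, were both labelled Gm12840-/-, and 87.8% of the genes tested varied less. The means were 22.0 ± 14.3 FPKM and 15.8 ± 8.06 FPKM (SD, n = 3 each), and the log2 fold change was 0.34, with an interval of -0.97 to 1.66. It was -0.13 without Gm12840-/- 2, -0.076 with the length slope as a covariate and -0.085 with the mitochondrial division as a term.

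Bmpr1b, the other type 1 kinase and a receptor through which BMP15 acts in granulosa cells, stood at 11.3, 14.8 and 12.99 FPKM in libraries labelled Gm12840-/- 1 to 3, against 11.1, 8.30 and 11.9 FPKM in those labelled WT 1 to 3. The groups overlapped only between Gm12840-/- 1 and WT 3. The means were 13.01 ± 1.76 and 10.4 ± 1.89 FPKM (SD, n = 3 each). The log2 fold change was 0.30, with an SE of 0.22 and an interval of -0.24 to 0.84, and had the smallest unadjusted p of the members, 0.228 in limma (adjusted p = 0.993).

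Bmpr2, the type 2 kinase that activates both, stood at 9.95, 20.9 and 9.98 FPKM in libraries labelled Gm12840-/- 1 to 3, against 9.28, 7.91 and 12.6 FPKM in those labelled WT 1 to 3. Gm12840-/- 2 alone stood above 12.6 FPKM. The log2 fold change was 0.36, with an interval of -0.46 to 1.17, and was 0.03 without that library.

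**Figure D2:**
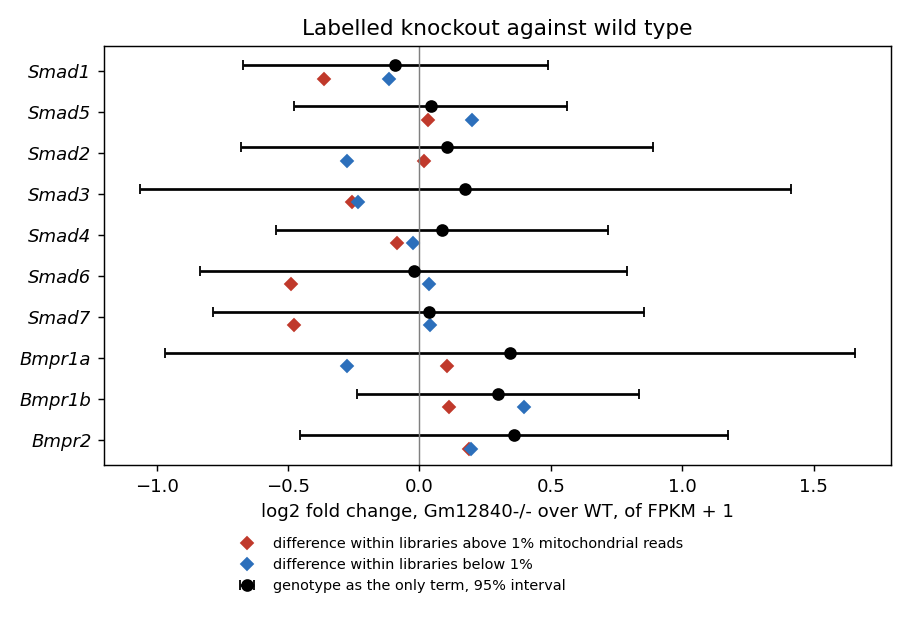
Log2 fold change of each member, Gm12840-/- over WT, on the log2(FPKM + 1) scale (x axis), with the 95% interval from limma over 6 libraries (black). Diamonds give the difference within the 3 libraries above 1% mitochondrial reads (red) and within the 3 below (blue), where 1 label has a single library. All black intervals include 0, and the diamonds of Smad3 lie left of its black point, at -0.26 and -0.24.

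The order of the libraries was shared by most members. In 6 of 10 members, Smad1, Smad2, Smad3, Smad4, Smad7 and Bmpr1a, the 3 libraries above 1% mitochondrial reads were all higher than the other 3, which held for 31.4% of all genes tested. In 0 of 10 they were all lower, which held for 34.9% of all genes. Smad5, Smad6, Bmpr1b and Bmpr2 followed neither order. Smad6 in Gm12840-/- 2, at 6.38 FPKM, lay under its level in WT 2, and Bmpr2 in Gm12840-/- 1, at 9.95 FPKM, lay just under its level in Gm12840-/- 3. The part of the mitochondrial share in these levels was not tested.

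Within the libraries above 1% mitochondrial reads, the log2 difference between Gm12840-/- 1 and 2 and WT 3 was 0.11 for Bmpr1a, 0.11 for Bmpr1b and 0.19 for Bmpr2. It was -0.49 for Smad6, -0.48 for Smad7, -0.36 for Smad1 and -0.26 for Smad3. Within the other 3, the difference between Gm12840-/- 3 and WT 1 and 2 was -0.27 for Bmpr1a, 0.40 for Bmpr1b, 0.20 for Bmpr2, 0.04 for Smad6, 0.04 for Smad7, -0.12 for Smad1 and -0.24 for Smad3. Bmpr1b, Bmpr2 and Smad5 were positive in both sets, and Smad1, Smad3 and Smad4 negative in both. Each of these differences has 1 library on one side, so none has a test of its own. With this division as a term in limma, a fit added after the data were examined, 0 of 10 members were called, and the log2 fold changes ran from -0.25 for Smad3 to 0.25 for Bmpr1b.

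**Figure D3:**
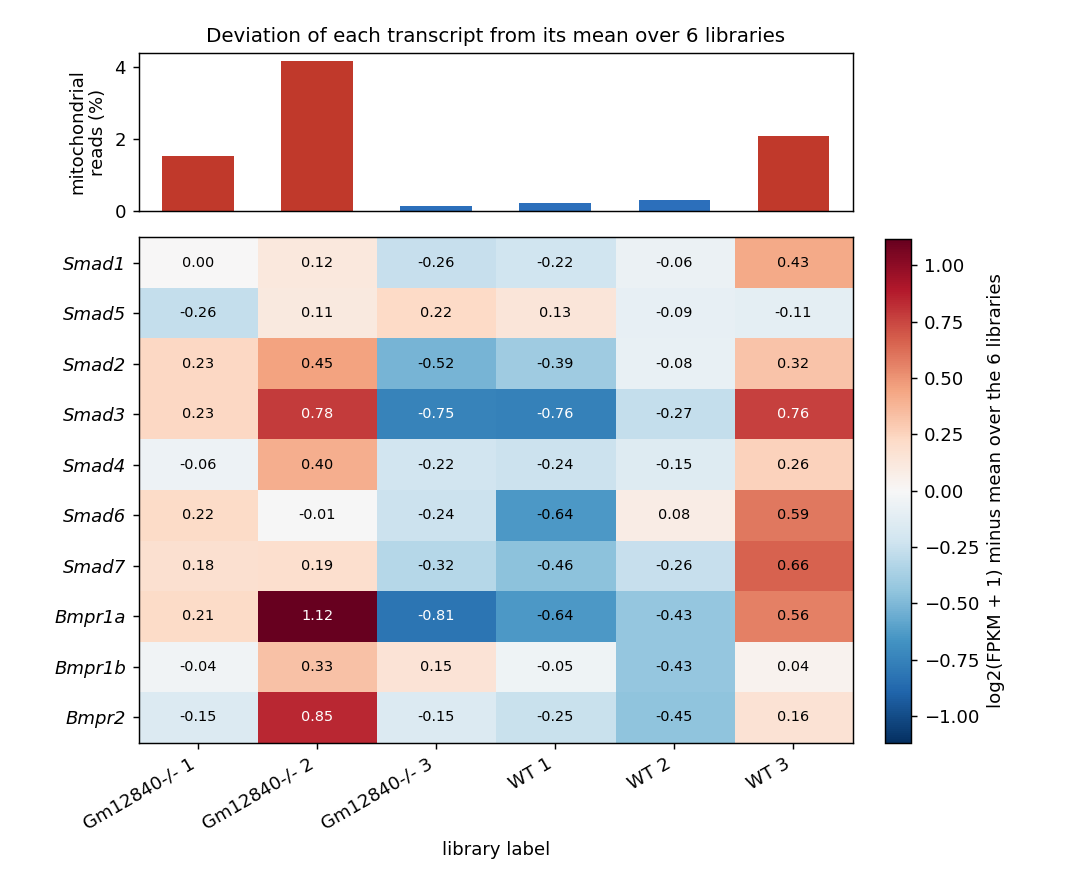
Upper panel: share of reads from mitochondrially encoded genes (%, y axis) in each library. Lower panel: each member's log2(FPKM + 1) minus its mean over the 6 libraries, in columns for the libraries labelled Gm12840-/- 1 to 3 and WT 1 to 3. Bmpr1a runs from -0.81 in Gm12840-/- 3 to 1.12 in Gm12840-/- 2, while Smad5 stays between -0.26 and 0.22.

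A contrast that leaves out replicate 3 of both labels sets libraries above 1% mitochondrial reads, labelled Gm12840-/-, against libraries below it, labelled WT. There limma called Bmpr1a and Smad3 higher, with log2 fold changes of 1.20 (adjusted p = 0.0306) and 1.02 (adjusted p = 0.0338). These are 2 of 10 members, in a fit that called 11.3% of all genes higher. Of the 57 other pathway genes tested it called 15 (14 higher, 1 lower), where 27.6% of all genes were called in either direction. Among the 15 were Id1 at -1.81 (adjusted p = 0.0194) and Id2 at 0.90 (adjusted p = 0.0442), both targets of BMP signalling. Label and mitochondrial share cannot be told apart in that contrast.

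Ratios between members of one library do not depend on the scaling between libraries, but members of unequal length can shift against each other where the length slope differs. Bmpr1b over Bmpr1a was 0.577, 0.395 and 1.43 in the libraries labelled Gm12840-/- 1 to 3, and 1.08, 0.687 and 0.474 in those labelled WT 1 to 3. Bmpr1b exceeded Bmpr1a in Gm12840-/- 3 and WT 1 only, the 2 libraries with the least mitochondrial reads. The ratio of Smad2 and Smad3 together to Smad1 and Smad5 together, chosen after the values were seen, was 1.68, 1.78 and 0.724, against 0.800, 1.17 and 1.71. The summed transcript levels of Smad1 and Smad5 thus exceeded those of Smad2 and Smad3 in the same 2 libraries only. This holds for the deposited length of Smad2, and protein was not measured.

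Smad1 over Smad5 was 0.569, 0.473 and 0.314 in the libraries labelled Gm12840-/- 1 to 3, against 0.347, 0.470 and 0.713 in those labelled WT 1 to 3. Smad5 was thus the main SMAD transcript of the BMP branch in every library. Smad2 exceeded Smad3 in every library, by 1.42, 1.11 and 1.78 times, against 1.97, 1.67 and 1.02 times. The deposited exon length of Smad2 was 3549 nt, against 8781 nt in GENCODE M21. Levels and ratios of Smad2 here rest on the deposited length, and the other was not tested. Smad6 over Smad7 lay below 1 throughout, at 0.635, 0.526 and 0.639, against 0.509, 0.794 and 0.592. Bmpr2 over both type 1 receptors together was the steadiest ratio, at 0.392 ± 0.0649 and 0.387 ± 0.0456 (SD, n = 3 each). All 6 ratios overlapped between the labels.

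**Figure D4:**
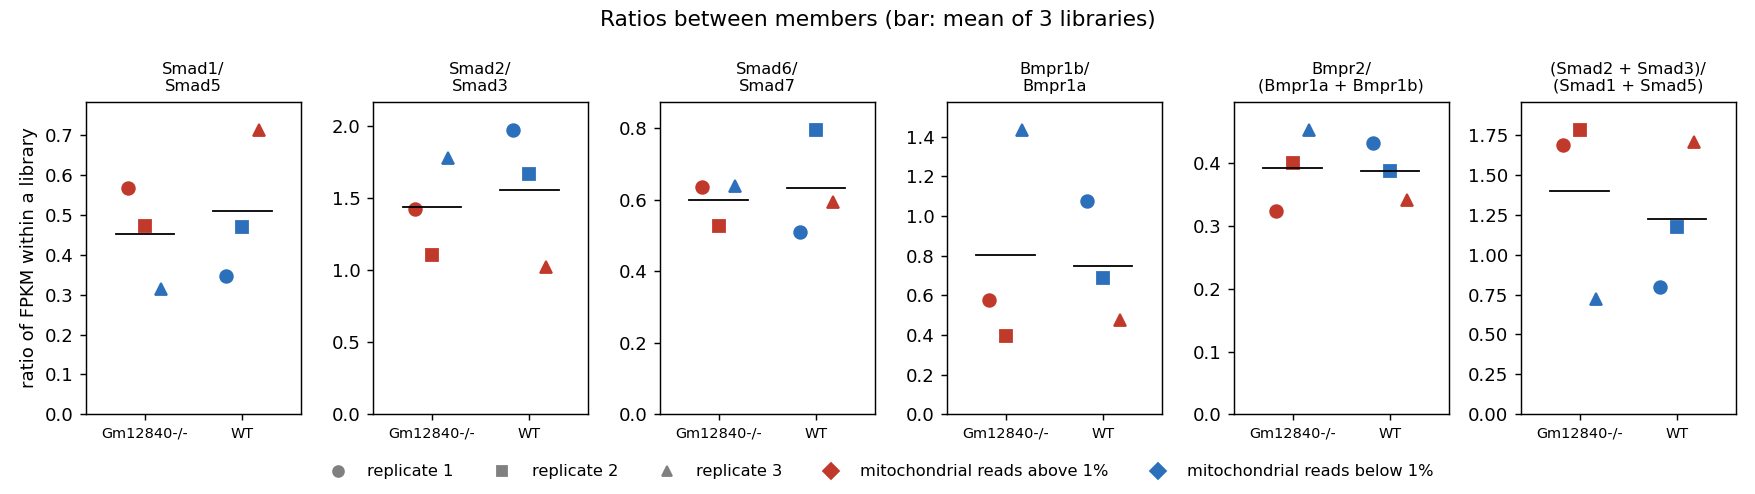
Ratio of FPKM between members within a library (y axis, linear, from 0) in the libraries labelled Gm12840-/- (left) and WT (right), with a bar at the mean of 3 libraries and colours for libraries above or below 1% mitochondrial reads. Bmpr1b over Bmpr1a spans 0.395 to 1.43, while Bmpr2 over both type 1 receptors spans 0.324 to 0.452.

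Other genes of the pathway were read from 5 lists of 76 genes in all, of which 57 passed the filter. limma called 0 of the 57. Log2 fold changes were positive in 35 and negative in 22, with a median of 0.06, where 45% of all genes were positive. This median had no stable direction. It was 0.05 with limma-voom and 0.12 with library totals. It was -0.06 with the length slope as a covariate and -0.07 with the mitochondrial division as a term. Leaving out single libraries put it between -0.07 and 0.20. An unadjusted p under 0.05 in limma was reached by 2 of the 57, against 0.728% of all genes. The 3 libraries above 1% mitochondrial reads were all higher in 28 of the 57, against 31.4% of all genes. They were all lower in 7, against 34.9% of all genes. The genes named next were the 3 most abundant of each list.

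Of 14 ligands tested, 6 were positive and 8 negative, with a median log2 fold change of -0.09. Inha, the inhibin alpha subunit, stood at 5906 ± 2036 FPKM in libraries labelled Gm12840-/- and 8992 ± 2855 FPKM in those labelled WT (SD, n = 3 each). Amh, anti-Müllerian hormone, stood at 436 ± 309 and 503 ± 257 FPKM, and Gdf9, the oocyte's growth factor, at 91.6 ± 44.1 and 109 ± 36.8 FPKM, in the same order of labels. All 3 were lower in every library above 1% mitochondrial reads than in every other library, as were 34.9% of all genes. This was opposite to Smad2, Smad3 and Bmpr1a. Bmp15, the partner of GDF9, was higher in each of those libraries, at 10.7, 24.4 and 2.97 FPKM in libraries labelled Gm12840-/- 1 to 3, against 3.81, 6.28 and 15.9 FPKM in those labelled WT 1 to 3. Bmp15 was chosen after its values were seen.

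Of 12 other receptors and co-receptors, 10 were positive, with a median log2 fold change of 0.13. Amhr2, the type 2 receptor for anti-Müllerian hormone, stood at 109 ± 67.6 FPKM in libraries labelled Gm12840-/- and 110 ± 62.3 FPKM in those labelled WT (SD, n = 3 each). Tgfbr1, the TGF-beta type 1 receptor, stood at 44.8 ± 20.1 and 36.9 ± 9.08 FPKM, and Neo1, a receptor for the BMP co-receptors of the RGM family, at 15.5 ± 5.98 and 12.9 ± 4.26 FPKM.

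Of 8 extracellular antagonists, 4 were positive and 4 negative, with a median log2 fold change of 0.01, or -0.0067 in limma-voom. Fst, follistatin, which binds activin, stood at 112 ± 22.2 FPKM in libraries labelled Gm12840-/- and 110 ± 19.1 FPKM in those labelled WT (SD, n = 3 each). Nbl1, a BMP antagonist, stood at 48.8 ± 12.04 and 48.9 ± 8.63 FPKM, and Bmper, a secreted BMP-binding protein, at 41.8 ± 8.64 and 47.7 ± 5.87 FPKM.

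Of 16 intracellular SMAD regulators, 13 were positive, with a median log2 fold change of 0.12. Of these 16, 12 were higher in every library above 1% mitochondrial reads, against 31.4% of all genes. Ski, a corepressor of SMADs, stood at 14.9 ± 4.46 FPKM in libraries labelled Gm12840-/- and 12.6 ± 5.16 FPKM in those labelled WT (SD, n = 3 each). Skil, its relative, stood at 14.6 ± 8.41 and 8.38 ± 2.11 FPKM, and Tgif1, another corepressor, at 13.3 ± 6.09 and 13.4 ± 1.41 FPKM.

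Of 7 textbook BMP targets, 2 were positive and 5 negative, with a median log2 fold change of -0.53. Id1, an inhibitor of helix-loop-helix factors that BMP signalling induces, stood at 67.0, 59.9 and 257 FPKM in libraries labelled Gm12840-/- 1 to 3, against 231, 218 and 156 FPKM in those labelled WT 1 to 3. Id1 was thus highest in Gm12840-/- 3 and lowest in Gm12840-/- 2, the libraries where Bmpr1a was lowest and highest. These were also the ends of the first principal component, at -55.0 and 70.8. Id1 was lower in every library above 1% mitochondrial reads than in every other library, as were 34.9% of all genes. Of the 7 targets, 1 (Id1) lay all lower there and 1 (Id2) all higher. A relation of Id1 to Bmpr1a was not tested. The log2 fold change of Id1 was -0.97 (n = 3 each, adjusted p = 0.993 by limma). Id3 stood at 130, 107 and 164 FPKM, against 162, 218 and 207 FPKM, and Id2 at 56.0, 72.0 and 20.5 FPKM, against 31.1, 36.5 and 86.9 FPKM. Id2 was high in the libraries where Id1 was low. Neither was called over all 6 libraries, while both were without replicate 3 of both labels, as given above.

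For each member, the gene outside the set with the most similar levels over the 6 libraries was found by Pearson's r of log2(FPKM + 1), as a description among 12495 genes that share these libraries. It was Sh3bp5 for Smad3 (r = 1.000 to 3 decimals), Zfp142 for Bmpr1a (0.999), Gfm1 for Smad2 (0.998), Arhgap35 for Smad4 (0.998), Gas2l1 for Smad6 (0.997) and Gm15344 for Smad1 (0.997). It was Galnt4 for Smad7 (0.995), Synpo for Bmpr2 (0.995), Exoc4 for Bmpr1b (0.987) and C330013E15Rik for Smad5 (0.979). Sh3bp5 stood at 13.7, 21.1 and 5.55 FPKM in libraries labelled Gm12840-/- 1 to 3, and 5.67, 8.69 and 21.1 FPKM in those labelled WT 1 to 3. As for Smad3, Gm12840-/- 2 and WT 3 were the highest and WT 1 and Gm12840-/- 3 the lowest.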

How the data were processed

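Sample titles gave each library's label. Each library's FPKM values were deposited by the authors as 1 table. The submitters' processing notes list HISAT2 2.0.5 and the mm10 build; the counter and its scaling were not given in the sources used here. The kit was TruSeq, per the labels' protocols. Multiplying FPKM by gene length recovered the reads: 100% of values came out whole, with a tolerance of 0.01 reads.

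limma 3.58.1 in R 4.3.3 was fitted over all genes on log2(FPKM + 1) with its trend option and a term for genotype alone. Genes needed over 1 FPKM in 3 libraries. Two-sided p-values were adjusted by Benjamini-Hochberg over all 12495 genes tested, with a threshold of 0.05. The added 1 makes fold changes of low genes too small. Gm12840, under the filter, was taken from the fit without one. The members, lists, alternatives and the rule for named genes (all members, Gm12840, the 3 most abundant genes per list, the most similar gene per member) were chosen with earlier results of these data known. Gene coordinates of 9 members matched GENCODE M21, and Smad2 has another end there. No pair of libraries of a label agreed within sampling noise. Figures were drawn with matplotlib 3.10.9.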

Additional observations from a re-analysis of the deposited data

How the results depend on the processing

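The count of called genes was 0 of all genes, 0 of the members and 0 of the other pathway genes under each alternative run, except as follows. Without replicate 3 of both groups limma called 3451 genes (1409 higher, 2042 lower), 27.6% of all, with 2 of 10 members and 15 of 57 other pathway genes. With the length slope as a covariate, and with the mitochondrial share class as a term, it called 1 gene each, Mir1291. With the replicate block, 0 genes and 0 members were called. The samples share only a number: deviations correlated at -0.422, -0.672 and -0.894 between the labels' libraries 1, 2 and 3, and no library (0 of 6) was most like its namesake. The tests written for deposited counts were not run, since the files hold FPKM. Scaling by median-of-ratios factors left each member's log2 fold change the same to 2 decimals. The deposited FPKM already carried library factors other than the read totals, so this alternative nearly repeated the main fit and is no separate check. With library totals the members' median was 0.18, against 0.10 in the main fit. Ordered by mean level, 7 of 10 members kept their place.

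The members' log2 fold changes lie near 0 and several changed sign, without a call; what lies behind this was not tested. With the length slope Smad2 was -0.11, Smad3 -0.22, Smad4 -0.063, Smad7 -0.17 and Bmpr1a -0.076. With the mitochondrial class they were -0.13, -0.25, -0.055, -0.22 and -0.085. With library totals Smad6 was 0.049. Without replicate 3 of both groups Smad1 was 0.21, Smad5 -0.10 and Smad6 0.38. Leaving out 1 library at a time gave -0.23 to 0.10 for Smad1, -0.058 to 0.18 for Smad5, -0.092 to 0.39 for Smad2, -0.17 to 0.60 for Smad3, -0.094 to 0.24 for Smad4, -0.35 to 0.27 for Smad6, -0.18 to 0.37 for Smad7 and -0.13 to 0.84 for Bmpr1a. It gave 0.16 to 0.39 for Bmpr1b and 0.03 to 0.53 for Bmpr2. Gm12840, -0.03, was 0.0047 with library totals, 0.019 with limma-voom, 0.15 with the length slope and 0.19 with the mitochondrial class. Leaving out single libraries put it between -0.27 and 0.28.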
